A study of Drosophila melanogaster with 31 samples.

Results

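The 9 genes described here encode structural proteins of the Drosophila basement membrane and the enzymes that cut it: LanA, LanB1, LanB2, trol, vkg, Ndg, Mmp1, Mmp2 and Timp. They were taken by name from a table of 17373 genes, by a rule that uses no measured value but was drawn up with earlier results of these data known, and all 9 were among the 9004 genes with enough reads to be tested. RNA sequencing was done on hand-dissected wing discs, the larval sacs that form the adult wing and thorax, from larvae in their last instar grown at 25 degrees. Each of 18 libraries came from discs of 12 to 35 larvae, and the 6 groups held 3 libraries each.

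All larvae carried ubxflp, a source of the FLP recombinase, on the X chromosome, and on the autosome that bears cic and wts the elements FRT82B M(3) ubiGFP, a Minute growth mutation marked with GFP. Its homologue was FRT82B alone in the controls, FRT82B with cicQ474X in cic discs, FRT82B with wts149 in wts discs and FRT82B with both alleles in cic wts discs. Controls and cic discs were taken on day 5, and wts and cic wts discs on day 5 and day 9. Such discs are mosaics made by mitotic recombination, in which cells that keep the slow-growing Minute chromosome can persist, so a library averages over cells of more than 1 genotype. The study, by its title, asks how the Hippo pathway alters the transcriptional response to Ras signalling. The kinase gene wts acts in the Hippo pathway, and cic encodes the repressor Capicua, which Ras signalling relieves. No sample of the series came from control or cic discs of day 9. The effect of age was thus measured only within the wts and cic wts genotypes.

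Basement membranes are sheets of extracellular matrix under epithelia. Laminin trimers, made of an alpha, a beta and a gamma chain, start the sheet, collagen IV gives it tensile strength, and perlecan and nidogen tie the networks together. In larvae, much of the collagen IV on discs is known to be delivered through the hemolymph from fat body and blood cells, whereas the disc makes laminin itself. Matrix metalloproteinases digest these sheets when discs evert and when tumours invade, and the tissue inhibitor of metalloproteinases blocks them.

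Levels are given as CPM, read counts divided by the library size and put on a common scale, with library sizes scaled by the trimmed mean of M-values, and groups as mean ± SD over 3 libraries. CPM is not divided by transcript length, so levels are compared for 1 gene between groups and never between genes. Differences are log2 fold changes ± SE from a single edgeR quasi-likelihood fit of all 18 libraries, with Benjamini-Hochberg adjusted p-values over the 9004 genes, and a gene was called when that value was under 0.05. The labels do not say whether libraries of a group came from separate crosses or cultures, so the p-values measure the spread between these libraries only. These are whole-tissue libraries, in which fewer cells of a type and less RNA per cell cannot be told apart.

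Total counts ranged from 14201662 to 26217144 per library. The wts transcript was at 94.96 to 110 CPM in the 6 libraries without wts149 and at 162 to 278 CPM in the 12 with it, and the cic transcript at 533 to 748 CPM without cicQ474X and 396 to 578 CPM with it. All 7 wing disc markers were detected in every library, with a summed level of 858 to 1508 CPM. Library 1 of cic wts discs on day 5 stood apart in the 8 hemocyte markers, which summed to 1556 CPM there and to 58.6 to 178 CPM in the other 17 libraries. Of these markers, crq was at 36.5 to 52.6 CPM in every library, and Hml at 2.76 to 42.1 CPM in those 17. Control library 3 stood apart in the 6 salivary gland markers, at 5250.04 CPM. Control library 2 was next at 245 CPM, against 0.14 to 16.5 CPM in the others. Control library 2 was highest in the 10 differentiated muscle markers, at 1119 CPM against 94.3 to 457 CPM in the others, and cic wts library 2 of day 5 in the 7 fat body markers, at 699 CPM against 3.59 to 300.03 CPM.

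On day 5 the loss of wts went with higher LanB1, lower Ndg and lower Mmp2, and the joint loss of cic and wts with higher LanA and LanB1 and lower Ndg, Mmp2 and Timp. In wts discs against controls, 3 of the 9 genes were called (1 higher, 2 lower), where 18.2% of all tested genes were (10.0% higher, 8.16% lower). In cic wts discs against controls, 5 were called (2 higher, 3 lower) beside 22.5% of all genes (11.3% higher, 11.2% lower). Between cic wts and cic discs 5 were called (2 higher, 3 lower) beside 29.2% (15.0% higher, 14.2% lower). With control library 3 and cic wts library 1 both left out, these 3 counts were 2, 4 and 5, and the 4 against controls then held no gene that was higher. In cic discs against controls none was called by edgeR (0 at an unadjusted p under 0.05, 0 by DESeq2), beside 1.63% of all genes. In cic wts against wts discs on day 5 none was called by edgeR (3 at an unadjusted p under 0.05, 0 by DESeq2), beside 2.91%.

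By day 9 the cic wts discs differed from wts discs in 3 genes, all lower: LanB1, trol and Timp, beside 6.90% of all genes called (4.01% lower). From day 5 to day 9, LanB2 and Timp rose in wts discs, 2 of the 9 genes beside 6.89% of all genes (4.19% higher). Over the same days LanB2, Mmp1, Mmp2 and Timp rose and trol fell in cic wts discs, 5 genes beside 10.6% (6.06% higher, 4.54% lower). Without cic wts library 1 of day 5 and control library 3 only 2 of these 5 calls remained, those of LanB2 and Mmp1. The median log2 change of the 9 genes from day 5 to day 9 was 0.26 in wts discs and 0.22 in cic wts discs, against -0.02 and -0.01 over all tested genes. No member was called by edgeR in the test of whether the effect of cic differed with and without wts (2 at an unadjusted p under 0.05, 0 by DESeq2; 1.94% of all genes called), nor in the test of whether it differed between days in the wts background (0 and 0; 0% of all genes). The comparisons against controls share their control libraries, and those that involve cic wts discs share the cic wts libraries, so their results are not independent of each other.

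**Figure D1:**
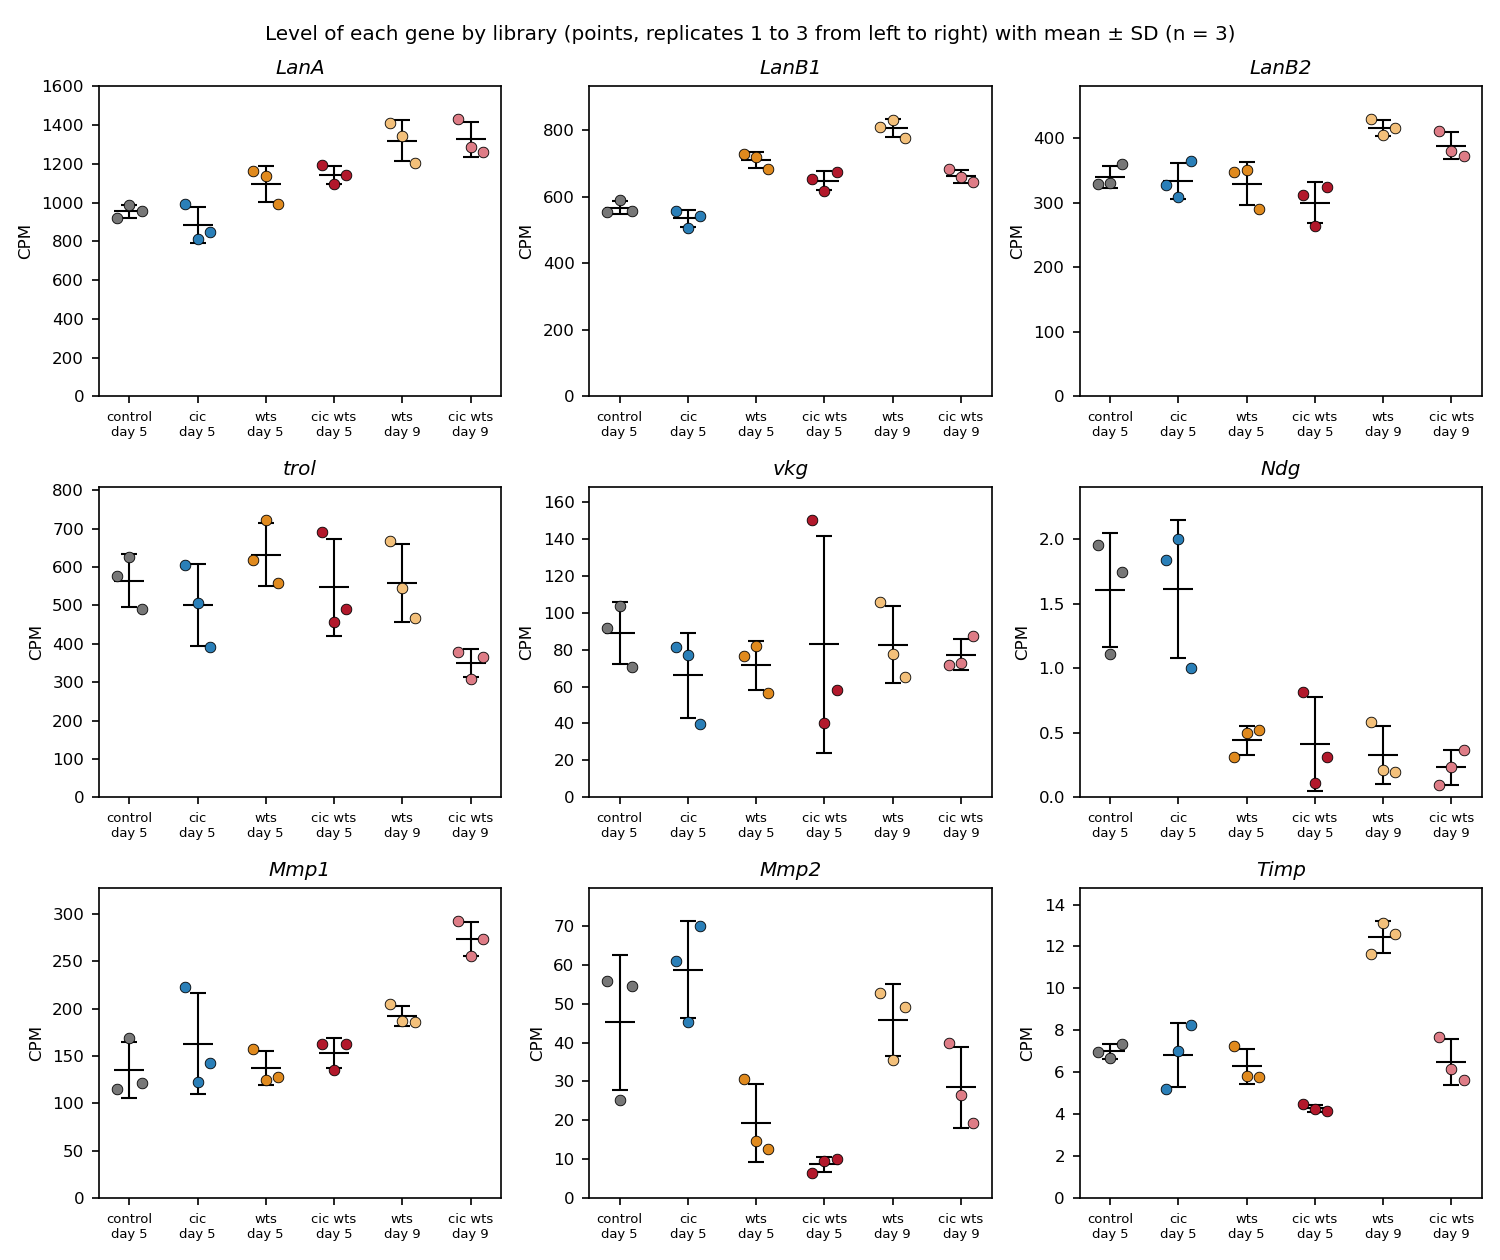
Levels of the 9 genes in CPM (linear axes from 0) in each of the 18 libraries, by group; points are libraries, and the horizontal bars with whiskers are group means ± SD (n = 3). Mmp2 is lowest in the 3 cic wts libraries of day 5 (6.55 to 10.03 CPM), Timp highest in the 3 wts libraries of day 9 (11.6 to 13.1 CPM), and vkg has 1 high cic wts library at 150.1 CPM.

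LanA, the laminin alpha chain gene on chromosome 3L (6203831 to 6218022; all positions are Release 6, the dm6 build), was at 922, 987 and 956 CPM in controls and at 992, 814 and 846 CPM in cic discs. On day 5 it was at 1162, 1139.9 and 992 CPM in wts discs and at 1192, 1095 and 1141 CPM in cic wts discs. On day 9 it was at 1411, 1345 and 1202 CPM in wts discs and at 1430.4, 1288 and 1262 CPM in cic wts discs. Every library with wts149 was above every control library, and every day 9 library was above every day 5 library. LanA rose by 0.37 ± 0.09 in cic wts against cic discs (adjusted p = 0.0051). Against controls it rose by 0.26 ± 0.09 in cic wts discs (adjusted p = 0.047), a call that was lost when any 1 of the 6 libraries was left out (0.22 to 0.29, adjusted p 0.063 to 0.13), and in wts discs the difference was 0.20 ± 0.09 (adjusted p = 0.13). The increase with age was 0.26 ± 0.09 in wts discs (adjusted p = 0.078) and 0.22 ± 0.09 with cic lost too (adjusted p = 0.13), and neither was called by edgeR. DESeq2 called the first (0.28, adjusted p = 0.026).

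LanB1 encodes the laminin beta chain, on chromosome 2L (7811438 to 7820771). Its levels were 554, 589 and 558 CPM in controls, 555, 505 and 543 CPM in cic discs, 728, 718 and 684 CPM in wts discs and 652, 618 and 673 CPM in cic wts discs of day 5. Neither wts nor cic wts libraries overlapped with controls. LanB1 rose by 0.33 ± 0.06 in wts discs (adjusted p = 0.0014), which held under all alternatives tried, and by 0.19 ± 0.06 in cic wts discs (adjusted p = 0.026). The second call was lost without control library 1 or 3 or cic wts library 1 or 3 (0.17 to 0.19, adjusted p 0.055 to 0.086). Against cic discs the rise in cic wts discs was 0.28 ± 0.06 (adjusted p = 0.0020). On day 9 LanB1 was at 808, 831 and 777 CPM in wts discs and at 683, 658 and 644 CPM in cic wts discs, with no overlap. There it fell by 0.28 on the log2 scale in cic wts against wts discs (SE 0.06, adjusted p = 0.0066), and on day 5 the same contrast was -0.13 ± 0.06 (adjusted p = 0.28). From day 5 to day 9 the wts libraries did not overlap, and the difference of 0.18 ± 0.06 was not called by edgeR (adjusted p = 0.067) but was by DESeq2 (0.19, adjusted p = 0.0053). The difference between the genotype contrasts of day 9 and day 5 was not called (-0.15 ± 0.08, adjusted p = 0.79).

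LanB2, the laminin gamma chain gene on chromosome 3L (9614914 to 9623980), did not follow the other chains on day 5. Its group means there were 339 ± 17.02 CPM in controls, 334 ± 28.2 CPM in cic discs, 329 ± 33.9 CPM in wts discs and 299.9 ± 32.3 CPM in cic wts discs. Libraries of groups next to each other in level overlapped. The cic wts libraries (263 to 324 CPM) were all below the controls (329 to 359 CPM), and that difference was not called (-0.18 ± 0.09, adjusted p = 0.17). On day 9 it was at 429, 404 and 415 CPM in wts discs and 411, 379.6 and 373 CPM in cic wts discs, all above every day 5 library. LanB2 rose with age by 0.34 ± 0.09 in wts discs (adjusted p = 0.036) and by 0.37 ± 0.09 in cic wts discs (adjusted p = 0.018). The first call was lost when any library but wts library 1 of day 5 was left out (adjusted p 0.064 to 0.14), and the second without cic wts library 2 of day 5 or library 1 of day 9 (adjusted p 0.061 to 0.10).

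Within a library, the ratio of LanB2 to LanB1 CPM, which is not corrected for length and is read only between groups, was 0.599 ± 0.041 in controls and 0.624 ± 0.042 in cic discs. It was 0.463 ± 0.034 in wts and 0.462 ± 0.031 in cic wts discs of day 5, and 0.517 ± 0.027 and 0.586 ± 0.014 on day 9. No day 5 library with wts149 reached the lowest control library (0.561). The ratio of LanA to LanB1 was highest in cic wts discs of day 9, at 2.00 ± 0.08, where every library was above all other 15 libraries. With 3 libraries against 3, an exact two-sided permutation test cannot go below 0.10, so the ratios are given as a description.

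**Figure D2:**
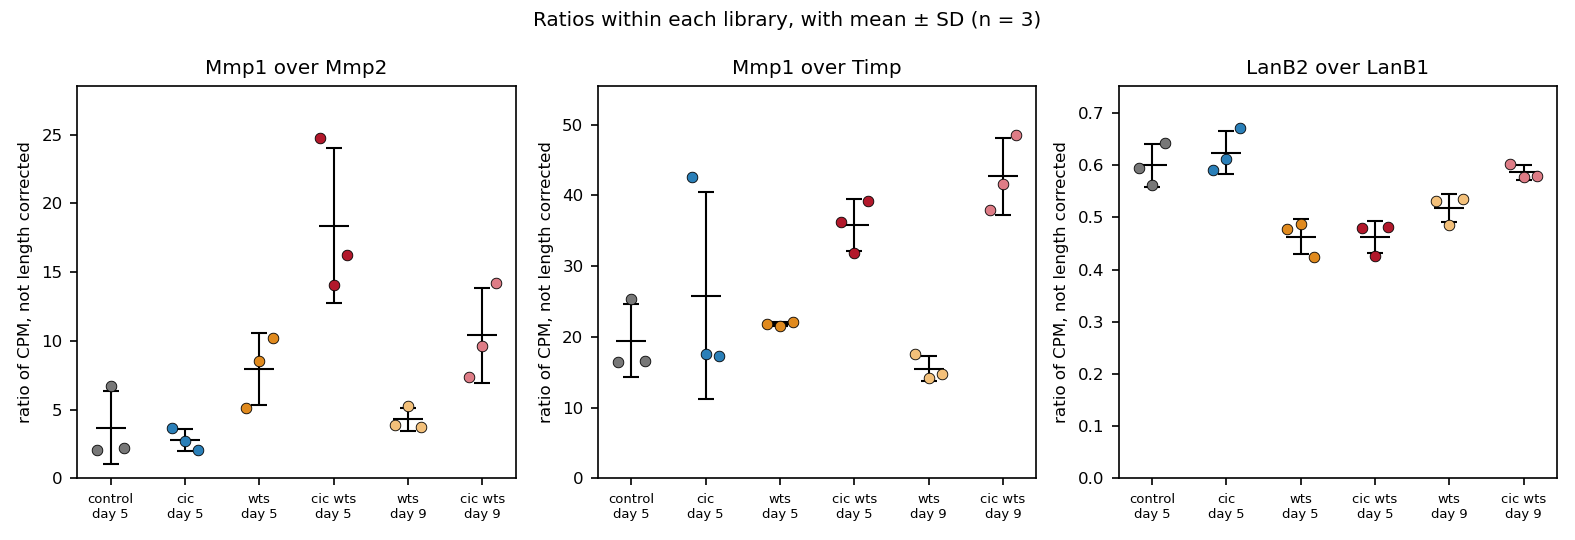
Ratios of CPM within each library, not corrected for length, by group; points are libraries, and the bars with whiskers are group means ± SD (n = 3). LanB2 over LanB1 lies lower in the day 5 groups with wts149 (means 0.463 and 0.462) than in controls (0.599), and the mean of Mmp1 over Mmp2 is highest in cic wts discs of day 5 (18.4).

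The perlecan gene trol, on the X chromosome (2470460 to 2545427), varied among libraries of each day 5 group more than the laminins did. It was at 576, 626 and 491 CPM in controls, 605, 506 and 393 CPM in cic discs, 617, 722 and 558 CPM in wts discs and 691, 458 and 491 CPM in cic wts discs, and these groups overlapped. On day 9 it was at 668, 544 and 466 CPM in wts discs and at 378, 307 and 364 CPM in cic wts discs. The 3 cic wts libraries of day 9 were the lowest of all 18. There trol fell by 0.68 on the log2 scale against wts discs (SE 0.18, adjusted p = 0.035) and by 0.64 against cic wts discs of day 5 (SE 0.18, adjusted p = 0.035). The first call was lost when any library but wts library 3 of day 9 was left out (-0.74 to -0.53, adjusted p 0.067 to 0.19). The second was lost without cic wts library 1 of day 5 or any cic wts library of day 9 (-0.70 to -0.44, adjusted p 0.06 to 0.17).

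The gene vkg encodes the alpha2 chain of collagen IV, on chromosome 2L (5012144 to 5028191). It was at 91.8, 103.9 and 70.8 CPM in controls, 81.6, 77.0 and 39.6 CPM in cic discs, 76.4, 81.8 and 56.6 CPM in wts discs and 150.1, 40.4 and 58.2 CPM in cic wts discs of day 5. On day 9 it was at 105.7, 77.7 and 64.9 CPM in wts discs and at 71.7, 73.0 and 87.2 CPM in cic wts discs. All groups overlapped with their neighbours in level, and vkg was called in none of the comparisons. The highest library was cic wts library 1, which was also highest in Hml, a hemocyte gene, at 279 CPM against 10.8 and 14.3 CPM in the other cic wts libraries of day 5. The change in cic wts discs against controls was -0.10 ± 0.37 with all libraries (adjusted p = 0.88). Without that library it was -0.85 (adjusted p = 0.048), and with control library 3 also left out -0.98 (adjusted p = 0.035). With the mean hemocyte marker level as a covariate it was -0.70 (adjusted p = 0.079). The library highest in fat body markers, cic wts library 2, was the lowest of its group in vkg, and without it the change was 0.23 (adjusted p = 0.71). The part of hemocytes or fat body in these values was not tested further.

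Col4a1, the gene of the collagen IV alpha1 chain, is no member but is the partner of vkg in the trimer and its neighbour in the genome. The ratio of vkg to Col4a1 CPM was 0.688 ± 0.051 over the 18 libraries and stayed between 0.588 and 0.796. Its lowest value was that of cic wts library 1, where Col4a1 was at 255 CPM. Both genes were high or low in the same libraries, over a 3.79-fold range in vkg. The ratio of vkg to Hml ranged from 0.539 to 14.4, and cic library 3, the lowest in vkg at 39.6 CPM, was also lowest in Hml at 2.76 CPM. Among controls the order differed. Control library 3 was highest in Hml (23.0 CPM) and lowest in vkg (70.8 CPM), and library 1 was lowest in Hml (7.27 CPM) with vkg at 91.8 CPM.

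**Figure D3:**
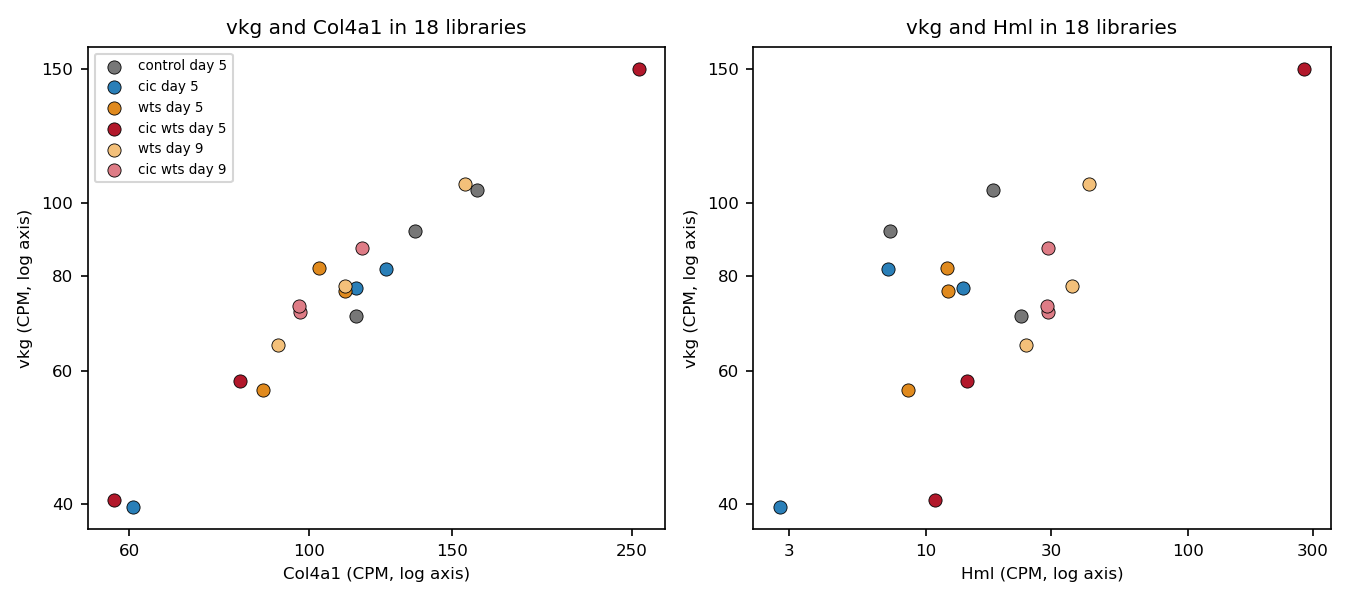
Level of vkg against Col4a1 (left) and against Hml (right) in CPM, both axes logarithmic, 1 point per library coloured by group. vkg and Col4a1 lie along a line, with the ratio between 0.588 and 0.796, and cic wts library 1 of day 5 is highest in all 3 genes.

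Ndg encodes nidogen, on chromosome 2R (10313891 to 10322104), and was close to the limit of detection. Control libraries held 42, 25 and 33 reads (1.96, 1.11 and 1.75 CPM) and cic libraries 39, 45 and 20 reads (1.84, 2.00 and 1.00 CPM). Libraries with wts149 held 2 to 16 reads, with group means of 0.442 ± 0.113 CPM in wts and 0.413 ± 0.361 in cic wts discs of day 5, and 0.328 ± 0.222 and 0.232 ± 0.134 on day 9. All 12 of them were below all 6 libraries without the allele. Ndg fell by 1.85 on the log2 scale in wts discs (SE 0.59, adjusted p = 0.040) and by 1.94 in cic wts discs (SE 0.58, adjusted p = 0.026) against controls, and by 1.95 in cic wts against cic discs (SE 0.58, adjusted p = 0.019). At these counts each call depended on single libraries. The first was lost when any library but control library 2 was left out (adjusted p 0.082 to 0.13), the second without control library 1 or 3 or cic wts library 2 or 3 (0.062 to 0.10), and the third without cic library 1 or 2 or cic wts library 2 or 3 (0.051 to 0.08).

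Mmp1, on chromosome 2R (24671294 to 24688184), encodes the metalloproteinase that is known as a target of JNK signalling in wounded and tumorous discs. On day 5 it was at 115, 169 and 122 CPM in controls, 223, 123 and 143 CPM in cic discs, 158, 125 and 128 CPM in wts discs and 162, 135 and 163 CPM in cic wts discs, and all groups overlapped. Its log2 differences from controls were 0.27 in cic discs (95% interval -0.12 to 0.66), 0.02 in wts discs (-0.37 to 0.41) and 0.18 in cic wts discs (-0.21 to 0.57). None was called, and the intervals leave room for changes of that size. On day 9 it was at 204, 186 and 186 CPM in wts discs and at 292, 256 and 273 CPM in cic wts discs. The cic wts libraries of day 9 were the highest of all 18. Mmp1 rose by 0.83 ± 0.18 from day 5 to day 9 in cic wts discs (adjusted p = 0.012), a call lost only without cic wts library 1 of day 9 among the libraries left out singly (0.78, adjusted p = 0.061). In wts discs the difference was 0.49 ± 0.18 (adjusted p = 0.11), and it was called only in the fit of the libraries compared (0.49, adjusted p = 0.011). The difference between the age effects was not called (0.34 ± 0.26, adjusted p = 0.89). Between the genotypes on day 9 the difference was 0.51 ± 0.18 (adjusted p = 0.11), without overlap of the libraries, and it too was called only in the fit of the libraries compared (0.51, adjusted p = 0.0042).

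Mmp2, on chromosome 2R (9611139 to 9683858), encodes the other metalloproteinase, which is anchored to the membrane by a lipid. It was at 55.9, 25.1 and 54.5 CPM in controls, 61.0, 45.3 and 69.9 CPM in cic discs, 30.7, 14.7 and 12.5 CPM in wts discs and 6.55, 9.61 and 10.03 CPM in cic wts discs of day 5. The cic wts libraries were below all others, and the highest wts library overlapped with the lowest control. Mmp2 fell by 2.37 on the log2 scale in cic wts discs against controls (SE 0.38, adjusted p = 0.00042) and by 2.75 against cic discs (SE 0.38, adjusted p = 7.3e-05), and both calls held under all alternatives tried. In wts discs it fell by 1.22 against controls (SE 0.36, adjusted p = 0.030), a call lost without control library 1 or 3 or wts library 2 or 3 (-1.06 to -0.99, adjusted p 0.087 to 0.14). Control library 2, the highest in differentiated muscle markers, was the lowest control in Mmp2, and without it the change was -1.51 (adjusted p = 0.0089).

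The effect of cic on Mmp2 was 0.38 ± 0.35 without wts149 (adjusted p = 0.76) and -1.15 ± 0.37 with it (adjusted p = 0.13), with no overlap between cic wts and wts libraries of day 5. The test of the difference gave -1.52 ± 0.51 (95% interval -2.62 to -0.43, unadjusted p = 0.0093, adjusted p = 0.16), so it was not called. On day 9 Mmp2 was at 52.7, 35.4 and 49.2 CPM in wts discs and at 39.8, 26.5 and 19.2 CPM in cic wts discs, which overlapped. It rose from day 5 to day 9 by 1.70 ± 0.37 in cic wts discs (adjusted p = 0.012), a call lost without cic wts library 1 of day 5 or library 1 of day 9 (1.39 to 1.54, adjusted p 0.058 to 0.076). In wts discs the difference of 1.24 ± 0.36 just missed the threshold (adjusted p = 0.051), and 8 of 13 alternatives called it. These were RLE and total-count scaling, no filter, DESeq2 (adjusted p = 0.018), the replicate block, the hemocyte covariate, the fit of only the libraries compared, and the fit without wts library 1 of day 5 (1.76, adjusted p = 0.017). It was not called when any other of the 6 libraries was left out (1.01 to 1.40, adjusted p 0.066 to 0.18).

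Markers of the myoblasts that lie on the notum of the disc also varied over the groups. The summed level of the 6 muscle progenitor markers was 383 to 394 CPM in controls, 395 to 440.3 CPM in cic discs, 239 to 277 CPM in wts discs and 183 to 205 CPM in cic wts discs of day 5, and on day 9 346 to 393 CPM in wts discs and 240 to 311 CPM in cic wts discs. Of these 6 markers, 3 were lower in wts and 5 in cic wts discs against controls, beside 8.16% and 11.2% of all genes. None of the 6 was at 0 in any library. Ama held the largest part of the control sum, at 194 ± 9.12 CPM. On day 5 it was at 96.4 ± 17.6 CPM in wts and 54.4 ± 9.01 CPM in cic wts discs. Mef2 was at 88.3 ± 6.21, 88.0 ± 3.95 and 84.4 ± 6.05 CPM in the same groups. The 6 tracheal markers moved in both directions. Their summed level was 1621 to 2154 CPM in controls, 1628 to 1847 CPM in cic discs, 2351 to 2548 CPM in wts discs and 2139 to 2634 CPM in cic wts discs of day 5. On day 9 it was 2849 to 3239 CPM in wts discs and 2702 to 3067 CPM in cic wts discs. Between these day 9 groups, 3 of the 6 were lower and 0 higher in cic wts discs, beside 4.01% of all genes lower. Of the 6, 2 were higher and 1 lower in wts discs against controls, and 3 were higher and 1 lower in cic wts discs, the lower one being btl in both, and none was at 0 in any library. The 10 differentiated muscle markers summed to 326 to 1119 CPM in controls and 94.3 to 457 CPM in cic discs. On day 5 they summed to 192 to 319 CPM in wts discs and 202 to 347 CPM in cic wts discs. On day 9 the sums were 127 to 174 CPM in wts discs and 191 to 234 CPM in cic wts discs. Most of each day 9 sum was sls, at 122 ± 21.2 CPM in wts and 192 ± 22.9 CPM in cic wts discs. In controls sls was at 130 ± 13.4 CPM. Mhc was at 1.81 ± 1.93 and 0.707 ± 0.257 CPM on day 9, against 63.0 ± 19.5 CPM in controls. Between the day 9 groups 1 of 9 tested markers was called, higher in cic wts discs, beside 6.90% of all genes. The median log2 difference of the markers was -1.34. Of 9 tested, 0 were lower in wts and 6 in cic wts discs against controls, beside 8.16% and 11.2% of all genes. The part of muscle or tracheal cells in the Mmp2 or Ndg values was not tested.

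Timp, the gene of the inhibitor, lies on chromosome 3R (10203875 to 10213007), within the span of Syn. It was at 6.99, 6.66 and 7.36 CPM in controls, 5.23, 7.02 and 8.27 CPM in cic discs, 7.24, 5.81 and 5.80 CPM in wts discs and 4.47, 4.24 and 4.15 CPM in cic wts discs of day 5. The cic wts libraries were the lowest of all 18. Timp fell there by 0.71 on the log2 scale against controls (SE 0.16, adjusted p = 0.0062) and by 0.67 against cic discs (SE 0.16, adjusted p = 0.0058). Against wts discs the difference was -0.55 ± 0.16 (adjusted p = 0.094), without overlap.

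On day 9 Timp was at 11.6, 13.1 and 12.6 CPM in wts discs, above every other library, and at 7.70, 6.15 and 5.62 CPM in cic wts discs. It rose with age by 0.98 ± 0.16 in wts discs (adjusted p = 0.0031) and by 0.60 ± 0.16 in cic wts discs (adjusted p = 0.032). The second call was lost when any library but cic wts library 3 of day 9 was left out (0.46 to 0.63, adjusted p 0.066 to 0.18). On day 9 it was lower in cic wts than in wts discs, at -0.94 ± 0.16 (adjusted p = 0.0020). The call of that contrast, that of age in wts discs and that of cic wts discs against controls held under all alternatives tried. The difference between the age effects was not called (-0.39 ± 0.23, adjusted p = 0.81). Timp, cic and wts lie on the arm that is exchanged at FRT82B, so a linked variant on a mutant chromosome and the mutation itself cannot be told apart for Timp. The same limit holds for other listed genes on chromosome 3R, among them Ppn, Meltrin and AdamTS-A.

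**Figure D4:**
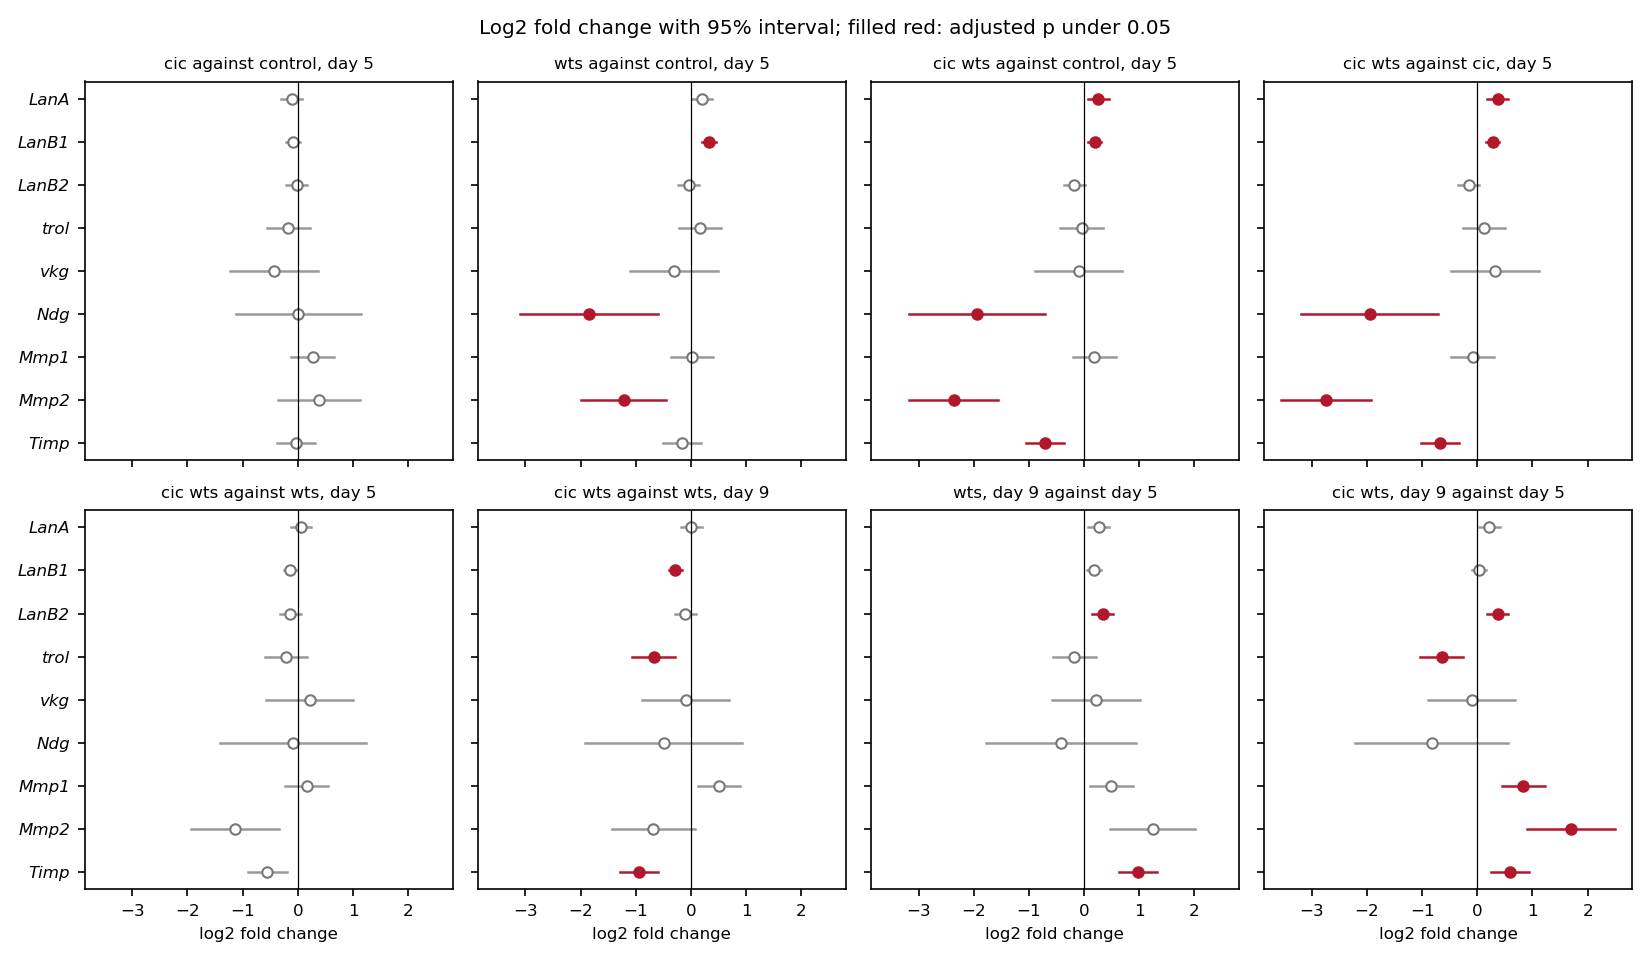
Log2 fold changes of the 9 genes in the pairwise comparisons, with 95% intervals; filled points were called at an adjusted p under 0.05 and open points were not. Mmp2 has the largest called changes, -2.37 and -2.75 in cic wts discs of day 5 against controls and cic discs, and the laminin changes are all under 0.4 in size.

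Set within each library, Mmp1 over Mmp2 was 3.67 ± 2.65 in controls, 2.81 ± 0.81 in cic discs, 7.96 ± 2.60 in wts discs and 18.4 ± 5.63 in cic wts discs of day 5. The day 9 values were 4.30 ± 0.83 in wts discs and 10.4 ± 3.48 in cic wts discs, where the highest library (14.2) overlapped with the lowest of day 5 (14.1). Mmp1 over Timp was 35.8 ± 3.71 in cic wts discs of day 5 and 42.7 ± 5.41 on day 9, against 21.8 ± 0.31 and 15.5 ± 1.80 in wts discs. On both days every cic wts library was above every wts library in both ratios. The range in cic discs was wide, with Mmp1 over Timp at 17.3 to 42.7, and overlapped with both cic wts groups.

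Over all 18 libraries the highest and lowest levels differed 20.6-fold for Ndg, 10.7-fold for Mmp2, 3.79-fold for vkg, 3.16-fold for Timp, 2.54-fold for Mmp1 and 2.35-fold for trol, and 1.63- to 1.76-fold for the 3 laminins. Of the 8 pairwise comparisons, Timp was called in 5, LanB1 and Mmp2 in 4 each, Ndg in 3, LanA, LanB2 and trol in 2 each, Mmp1 in 1 and vkg in 0. Genes that overlap the members could share their reads, as no source used here gives the strand setting of the counting. Syn averaged at most 0.155 CPM and CR44069, antisense to Mmp2, at most 0.275 CPM in any group. Pof, which overlaps Mmp1, averaged 32.2 to 37.0 CPM over the groups.

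Of all tested genes, 18.2% were called in wts and 22.5% in cic wts discs against controls, and 29.2% in cic wts against cic discs. Between cic wts and wts discs the share was 2.91% on day 5 and 6.90% on day 9. With age it was 6.89% in wts and 10.6% in cic wts discs. The counts of this list and the next 3 stand beside these shares. Other basement membrane proteins moved gene by gene, with 12.5% called in wts and 25% in cic wts discs against controls. Of 8 tested, 1 was called in wts discs against controls: Tsp, the thrombospondin gene, fell by 0.43 on the log2 scale (adjusted p = 0.021). In cic wts discs against controls 2 were called, both lower: Ppn, which encodes papilin, at -0.92 ± 0.24 (adjusted p = 0.014), and Mp, a collagen XV/XVIII gene, at -1.05 ± 0.24 (adjusted p = 0.0052). Against cic discs Ppn (-1.22) and Mp (-0.69) were lower and Pxn, the peroxidasin gene, was higher (2.84 ± 0.87, adjusted p = 0.023). Pxn is also made by hemocytes, and its level was 156 CPM in cic wts library 1 of day 5 and 6.65 and 9.17 CPM in the others. With that library and control library 3 left out, a check added after the data were seen, the difference in Pxn was -2.9e-05 on the log2 scale (adjusted p = 1). On day 9 wb, the other laminin alpha chain gene, was lower in cic wts than in wts discs (-1.15 ± 0.20, adjusted p = 0.0023), at 50.5 ± 5.35 against 112 ± 36.4 CPM. With age Tsp rose in both genotypes, by 1.05 ± 0.12 in wts (adjusted p = 0.00031) and 0.76 ± 0.12 in cic wts discs (adjusted p = 0.0016). In cic wts discs Mp rose (0.85, adjusted p = 0.034) and wb fell by 1.11 on the log2 scale (adjusted p = 0.0037). The integrin ligand gene tig was higher in cic wts than wts discs of day 5 (1.62 ± 0.36, adjusted p = 0.021), as the only one of the 8 called there, at 39.8 CPM in library 1 and 11.7 and 14.5 CPM in the others. Without both libraries the calls were lost for tig (0.88, adjusted p = 0.068), for Tsp in wts discs (-0.34, adjusted p = 0.061), for Mp against cic discs (-0.52, adjusted p = 0.14) and for Mp with age (0.68, adjusted p = 0.14).

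Among 8 receptor genes, Dg, which encodes the laminin receptor dystroglycan, was lower in wts (-0.27 ± 0.07, adjusted p = 0.020) and cic wts discs (-0.36 ± 0.07, adjusted p = 0.0031) against controls. The integrin alpha chain gene ItgaPS4 was also lower in wts discs (-2.56 ± 0.80, adjusted p = 0.038). It was close to the limit of detection, at 0.093 ± 0.056 CPM in wts discs and 0.586 ± 0.062 CPM in controls. The integrin genes mys, the beta chain, and if, an alpha chain, were higher in cic wts discs (0.23, adjusted p = 0.045, and 0.43, adjusted p = 0.0095). Against cic discs Dg was lower (-0.45, adjusted p = 0.00031) and mys (0.23, adjusted p = 0.032) and ItgaPS5 (0.60, adjusted p = 0.043) were higher. On day 9 if was lower in cic wts than in wts discs (-0.58 ± 0.11, adjusted p = 0.0035), the only one of the 8. With age mew, the alpha chain of the laminin-binding integrin, rose by 0.38 in each genotype (adjusted p = 0.020 and 0.015), mys rose in wts discs (0.37, adjusted p = 0.012), and if fell by 0.60 on the log2 scale in cic wts discs (adjusted p = 0.0037). Leaving out the same libraries ended the calls against controls of Dg in wts discs (-0.24, adjusted p = 0.073), ItgaPS4 (-2.62, adjusted p = 0.057), mys (0.25, adjusted p = 0.083) and if (0.35, adjusted p = 0.072), that of ItgaPS5 against cic discs (0.62, adjusted p = 0.069) and that of mew with age in cic wts discs (0.29, adjusted p = 0.082).

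Of 7 genes for folding and secretion of collagen IV, Tango1, which exports collagen from the endoplasmic reticulum, was lower (-0.47 ± 0.08, adjusted p = 0.0014) and Rab10, which directs basement membrane secretion, higher (0.28 ± 0.05, adjusted p = 0.0018) in wts discs against controls. Rab10 (0.18, adjusted p = 0.019) and Ehbp1, its partner (0.19, adjusted p = 0.048), were higher in cic wts discs. Against cic discs, Rab10 (0.19, adjusted p = 0.012) and Ehbp1 (0.29, adjusted p = 0.0041) were higher and Tango1 lower (-0.32, adjusted p = 0.0089) in cic wts discs. None of the 7 was called by edgeR with age or between cic wts and wts discs on either day. Of 6 tested protease genes, Meltrin, which encodes an ADAM protease, was lower in wts (-0.69 ± 0.19, adjusted p = 0.018) and cic wts discs (-0.68 ± 0.19, adjusted p = 0.016) against controls. In cic wts discs kuz, the ADAM protease that cleaves Notch, was also lower (-0.34, adjusted p = 0.016) and AdamTS-B higher (0.39, adjusted p = 0.034). AdamTS-B was higher in cic wts than in wts discs of day 9 as well (0.72 ± 0.13, adjusted p = 0.0023). Against cic discs 4 of the 6 were lower in cic wts discs, where 14.2% of all genes were: kuz (-0.46, adjusted p = 0.0015), Meltrin (-0.89, adjusted p = 0.0019), stl (-3.23, adjusted p = 0.013) and AdamTS-A (-0.85, adjusted p = 0.047), the last lost without the libraries left out above (-0.95, adjusted p = 0.052). Of these, stl was close to the limit of detection, at 0.093 ± 0.037 CPM in cic wts and 0.944 ± 0.480 CPM in cic discs. With age 1 of the 6 was called in wts discs, kuz, which was higher (0.33, adjusted p = 0.041), and 0 in cic wts discs by edgeR. The calls against controls that did not hold without the same libraries were those of Rab10 (0.18, adjusted p = 0.078), Ehbp1 (0.13, adjusted p = 0.29), kuz (-0.24, adjusted p = 0.15) and AdamTS-B (0.20, adjusted p = 0.28) in cic wts discs, and of Meltrin in wts (-0.56, adjusted p = 0.079) and cic wts discs (-0.55, adjusted p = 0.099).

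Genes with the most similar profile were taken for members whose 6 group means spanned at least 1 on the log2 scale, as the smallest root mean square difference of centred log2 group means among 2290 genes that varied as much. For Mmp1 these were lbk (0.11), E5 (0.12) and Cyp6t3 (0.12), for Mmp2 Pka-C3 (0.19), kn (0.23) and stl (0.24), for Timp CG4576 (0.11), Nep2 (0.14) and bs (0.15), and for Ndg CG11786 (0.14), CG12688 (0.19) and CR45437 (0.22). Of these, Cyp6t3, stl, CG11786, CG12688 and CR45437 averaged at most 1.52 CPM in any group, close to the limit of detection. With 6 group means and so many candidates, the values are descriptive. The spans of LanA, LanB1, LanB2, trol and vkg were under 1.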

How the data were processed

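The authors deposited raw read counts per gene for 18 RNA libraries, whole numbers with no normalization. Per the labels, libraries were made with TruSeq mRNA reagents from discs of 12 to 35 larvae, and per the submitters' processing notes Bowtie2, TopHat2, HTSeq and DESeq2 were used with build dm6. For versions, roles and strandedness: not given in the sources used here. All columns were matched to samples by name and used. Another 13 samples, of ChIP-nexus, were left out.

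Counts were filtered by edgeR's filterByExpr, which left 9004 of 17373 genes (2937 had no read), and scaled by the trimmed mean of M-values. An edgeR quasi-likelihood model with 1 term for each of the 6 groups was fitted to all 18 libraries, with Benjamini-Hochberg adjustment over all tested genes, in R 4.3.3 with edgeR 4.0.16, limma 3.58.1 and DESeq2 1.42.0. SEs were derived from the F statistics, and 95% intervals used edgeR's total degrees of freedom. The common biological coefficient of variation was 0.185. The script was tested on simulated counts with known changes. Replicate libraries differed by more than sampling noise (chi-square per degree of freedom 10.4 to 58.9).

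The members and the lists of related and marker genes were chosen with earlier results of these data known. All 9 members are named in every comparison, genes of other lists up to 4 called per list by adjusted p, and similar genes 3 per member. Names and positions came from RefSeq's Release 6 table, where all 99 listed genes matched, 13 under an older symbol. Alternatives were RLE and total-count scaling, no filter, DESeq2, a replicate block, a hemocyte covariate, fits of only the libraries compared, and libraries left out.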

Additional observations from a re-analysis of the deposited data

How the results depend on the processing

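Over the 90 results for single members, 1257 of 1346 alternatives kept the side of the threshold, 75 lost a call and 14 gained one, and no value that was called in either fit changed sign. Values called in neither could change sign, as those of vkg did. Of 23 called results, 7 held throughout: LanB1 in wts discs against controls, Mmp2 and Timp in cic wts discs against controls, Mmp2 in cic wts against cic discs, LanB1 and Timp in cic wts against wts discs of day 9, and Timp with age in wts discs. Another 61 results that were not called stayed so throughout. LanA, LanB1 and Timp in cic wts against cic discs lost the call only in the fit of the libraries compared (adjusted p = 0.053, 0.064 and 0.076). In other comparisons that kind of fit lost some calls and gained others, and the cause was not tested.

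Members called numbered 5 in cic wts discs against controls, and 3 with total-count scaling and 2 in the fit of only the libraries compared. In cic wts against cic discs the 5 became 1 in that fit. With age in wts discs the 2 became 5 by DESeq2 and 4 in that fit, and in cic wts discs the 5 became 3 in that fit and 2 without control library 3 and cic wts library 1 of day 5. Leaving out 1 library at a time gave 1 to 3 members in wts and 2 to 4 in cic wts discs against controls, 1 to 3 with age in wts and 0 to 4 in cic wts discs.

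Over all genes, 147 were called in cic discs against controls (DESeq2 248, only the libraries compared 19, libraries left out singly 61 to 149). In wts discs 1635 were called (813 to 1285 with libraries left out singly), and in cic wts discs 2022 (only the libraries compared 1044). In cic wts against cic discs 2629 were called (1481), against wts discs of day 5 262 (DESeq2 487, left out singly 105 to 246) and of day 9 621 (left out singly 307 to 482). With age 620 were called in wts (DESeq2 1082, only the libraries compared 1031, left out singly 118 to 467) and 955 in cic wts discs (403 without both libraries named above, left out singly 237 to 871). The test of cic by wts called 175 (DESeq2 395, hemocyte covariate 114, only the libraries compared 78, left out singly 92 to 257) and that of cic by day 0 (DESeq2 33). The cause of these shifts was not tested.

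Total-count scaling moved the split of genes higher and lower from 900 and 735 to 635 and 1081 in wts discs, from 1014 and 1008 to 749 and 1293 in cic wts discs, and from 1352 and 1277 to 1080 and 1558 in cic wts against cic discs.

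Groups share replicate numbers. Of same-numbered pairs from different groups, 15 of 45 had a correlation over 0.1 (median 0.054), against 18 of 90 pairs with different numbers (median -0.041). Of 18 libraries, 14 correlated best with a library of their own number. Libraries of the same number were thus somewhat alike, and the main fit had no term for the number. With the replicate number as a block, cic by day called 3 genes, Mmp2 with age in wts discs gained a call (1.28, adjusted p = 0.029), and no other member call changed. Levels per coding length were not run, since no coding lengths were used. Depth limits mainly Ndg, which had 2 to 45 reads per library.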

Other observations

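The JNK pathway is known to act upstream of Mmp1, and 8 genes of that pathway and AP-1 were tested. Against controls 2 of them (25%) were called in wts and 3 (37.5%) in cic wts discs, beside 18.2% and 22.5% of all genes. In wts discs against controls, egr, the TNF ligand gene, was lower (-0.66 ± 0.17, adjusted p = 0.017) and grnd, a receptor gene, higher (0.45 ± 0.10, adjusted p = 0.0054). In cic wts discs against controls, egr (-1.003 ± 0.18, adjusted p = 0.00088) and wgn, another receptor gene (-0.28 ± 0.06, adjusted p = 0.0059), were lower and grnd higher (0.31 ± 0.10, adjusted p = 0.032). On day 9, cic wts discs were lower than wts discs in egr (-0.85 ± 0.18, adjusted p = 0.0079) and wgn (-0.49 ± 0.07, adjusted p = 0.0003), at 5.02 ± 0.11 against 9.05 ± 0.55 CPM and 43.1 ± 2.50 against 60.5 ± 3.69 CPM. The effect of cic on wgn differed with and without wts149 on day 5 (-0.49 ± 0.09, adjusted p = 0.013), the only one of the 8 genes for which it did. Without control library 3 and cic wts library 1 of day 5 that call was lost (-0.43, adjusted p = 0.055), and the others against controls held. With age 0 of the 8 were called by edgeR in either genotype (at an unadjusted p under 0.05, wgn in wts discs, and wgn and hep with cic lost too), beside 6.89% and 10.6% of all genes.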
